A study of Mus musculus with 6 samples.

Results

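Immediate early genes are transcribed within minutes of a stimulus, without new protein synthesis, from factors that already sit in the cell. The genes described here are Fos, Fosb, Jun, Junb, Jund, Egr1, Egr2, Egr3, Ier2 and Atf3, which are known to be induced by injury and by the dissociation of tissue. They were taken by gene symbol from the gene tables, by a rule that uses no measured value, and make up 10 of the 49671 genes listed. All 10 were expressed highly enough to be tested, among 14494 genes tested.

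RNA-Seq was performed on muscle stem cells (MuSCs), the resident stem cells of skeletal muscle, sorted by FACS from the tibialis anterior (TA) muscles of female C57BL/6 mice aged 4 to 6 months. Both groups received 50 μL of 1.2% BaCl2, a salt that kills myofibers, into the TA, and the cells were collected at day 3 after this injury. The RvD1 group (n = 3) received resolvin D1, a lipid mediator made from docosahexaenoic acid that promotes the resolution of inflammation. It was given daily by IP injection at 100 ng in 0.1% ethanol, and the vehicle group (n = 3) received 0.1% ethanol without RvD1. Each library came from 1 mouse, with its 2 TA muscles pooled, and the sort kept cells that carried CXCR4 together with β1-integrin and lacked CD45, CD11b, Ter119 and Sca-1. The sample labels also put CD31, which Pecam1 encodes, among the markers selected against, and the study's methods do not. All muscles were digested with collagenase and dispase for 60 minutes at 37°C, and the cells stood for 30 minutes on ice with antibodies before the sort. None of the 6 libraries came from uninjured muscle or from undigested cells, so what injury and what digestion contributed to the levels of immediate early genes cannot be told apart here, and every comparison below is between 2 groups that had both.

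The Fos and Jun proteins pair through a leucine zipper to form AP-1, a transcription factor that binds TGANTCA. Fos family members bind DNA only as partners of Jun family members, whereas Jun proteins can also pair with each other. The Egr proteins are zinc finger factors that bind a GC-rich site, Ier2 is a small nuclear protein, and Atf3 is a stress-induced member of the ATF/CREB family. Pairs of Jun with ATF proteins bind TGACNTCA. Transcription of many of these genes is switched on by serum response factor (SRF), which binds the CArG box, and by CREB, which binds sites that hold TGACG. In skeletal muscle, Fos and Egr1 are among the first transcripts to rise in MuSCs when the tissue is damaged or taken apart.

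The 250 bases in front of the transcription start were searched for these sites, so any that lie farther upstream would be missed. RefSeq windows on GRCm38.p6 that started within 100 bases of the principal transcript were found for 5 of the 10 genes, namely Fos, Fosb, Jun, Junb and Egr2. The 250 bases before the start are given for Fos, the most abundant of the genes, for Jun, the steadiest between libraries, and for Egr2, the most variable. Capitals mark every match on either strand to the CREB motif TGACG, the Jun-ATF motif TGACNTCA, the AP-1 motif TGANTCA, the Egr motif GCGNGGGCG or the CArG box. A TGACNTCA with G in its middle also counts as TGACG, and positions are those of the first base of a match on the strand of the gene.

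Fos (chr12:85473640-85473889, plus strand): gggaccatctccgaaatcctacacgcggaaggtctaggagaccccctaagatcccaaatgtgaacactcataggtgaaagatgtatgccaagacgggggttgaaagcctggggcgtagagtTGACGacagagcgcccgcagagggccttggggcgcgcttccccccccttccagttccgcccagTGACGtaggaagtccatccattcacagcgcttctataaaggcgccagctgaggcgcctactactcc

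Jun (chr4:95052223-95052472, minus strand): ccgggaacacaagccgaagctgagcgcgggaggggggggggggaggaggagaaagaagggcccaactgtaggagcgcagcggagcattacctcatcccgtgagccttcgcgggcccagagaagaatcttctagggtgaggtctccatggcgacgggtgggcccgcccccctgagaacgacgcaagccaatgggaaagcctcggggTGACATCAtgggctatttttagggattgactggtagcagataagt

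Egr2 (chr10:67537619-67537868, plus strand): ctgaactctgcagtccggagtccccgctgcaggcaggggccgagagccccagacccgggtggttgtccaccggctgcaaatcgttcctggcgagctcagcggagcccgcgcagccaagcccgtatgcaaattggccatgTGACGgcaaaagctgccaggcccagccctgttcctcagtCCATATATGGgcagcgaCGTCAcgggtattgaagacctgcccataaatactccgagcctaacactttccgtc

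The Egr2 window held a CArG box whose first base lies 72 bases before the start, with TGACG at 111 and 55 bases. The CArG box was found in 1 of the 5 windows and in 1.47% of 32817 promoter windows of the same length. Fos carried TGACG at 129 and 66 bases before the start, Fosb at 60 bases and Junb at 106 bases, and 17.7% of all windows held this motif. The Jun window held the 8-base site TGACNTCA at 45 bases, as did 7.49% of all windows, and no other of the 5 windows did. The GC-rich motif GCGNGGGCG lay 50 bases before the start of Fosb and was found in 4.70% of all windows. None of the 5 windows held TGANTCA, which 6.75% of all windows did. These are matches of letters within a short window and not measurements of binding.

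Levels are given in TPM, the share of a library's transcripts that come from a gene, which is scaled for transcript length so that genes can be compared. The immediate early genes were abundant in the sorted cells of both groups. Mean TPM over the 6 libraries was at least 10 for 9 of the 10 genes and at least 100 for 5 of them. Fos was the highest, at a mean of 384 TPM, and 478 of the 49671 genes had a higher mean. It was followed by Junb (366 TPM), Jun (245), Egr1 (239), Ier2 (128), Atf3 (63.0), Jund (61.5), Fosb (41.2), Egr2 (38.9) and Egr3 (3.36). In this order Junb exceeded Jun, Ier2 exceeded Atf3, Jund exceeded Fosb, and Egr2 exceeded Egr3 without any overlap of their values between libraries. The other neighbors overlapped, and Fos lay above Junb in only 3 of the 6 libraries. Summed over the 10 genes, the level was 1688 ± 378 TPM in RvD1-treated mice and 1449.9 ± 129 TPM in controls (SD, n = 3 each).

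**Figure D1:**
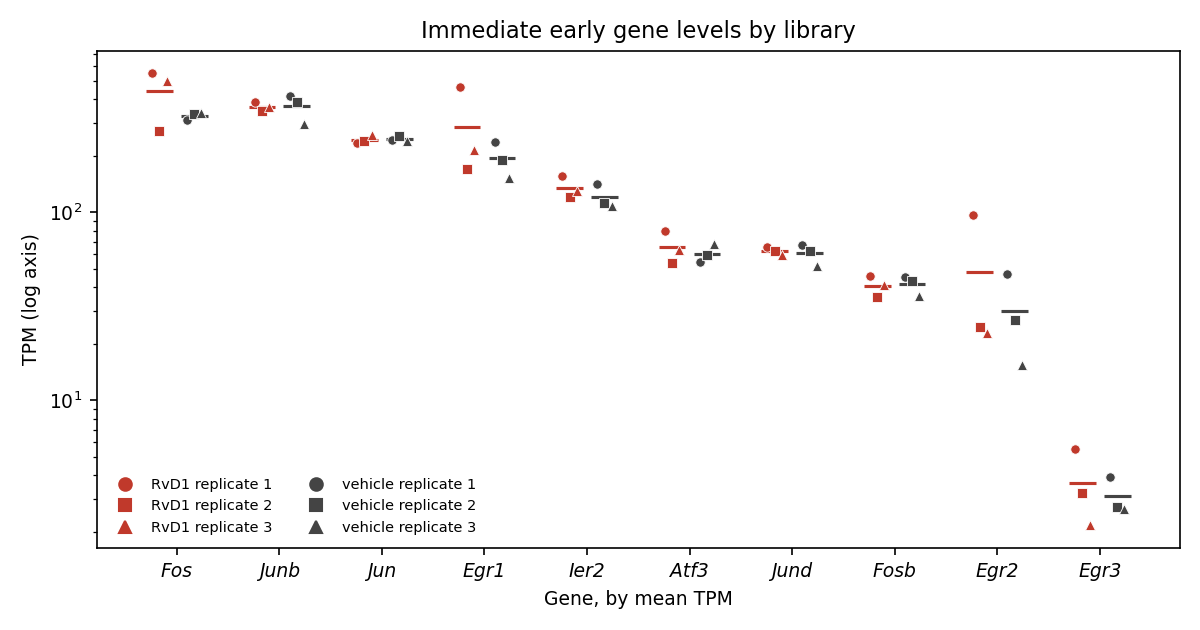
TPM (log axis) of the 10 genes in each library, ordered by mean TPM, with RvD1 in red and vehicle in gray. Each symbol is 1 library and each bar the mean of 3 libraries. The values of the 2 groups overlap for every gene, and RvD1 replicate 1 lies far above the other libraries for Egr1 and Egr2.

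The comparison of RvD1 with vehicle asks whether the levels of these transcripts in the sorted MuSCs differed with treatment of the animal. None of the 10 immediate early genes differed between the groups in edgeR's quasi-likelihood test after Benjamini-Hochberg adjustment over all 14494 genes tested, in which 0% of genes passed, and the smallest adjusted p was 0.971. At an unadjusted p under 0.05, 0 of the 10 genes passed, and 3.47% of all genes tested did. Without the filter on low counts, edgeR's quasi-likelihood test gave an unadjusted p of 0.0265 for Fos, 0.0156 for Egr1 and 0.0459 for Egr2, each with an adjusted p of 0.885. The share of all genes with an unadjusted p under 0.05 in that fit is not given here. DESeq2 and limma-voom also called 0 of the 10 genes. For each of the 10 genes the values of the 2 groups overlapped, whereas 9.62% of all genes tested had groups that did not overlap. The fold change was above 1 for 6 of the genes, namely Fos, Egr1, Egr2, Egr3, Ier2 and Atf3, and below 1 for Fosb, Jun, Junb and Jund, and 53.5% of all genes tested lay above 1. The median log2 fold change of the 10 genes was 0.061, compared with 0.014 over all genes tested.

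**Figure D2:**
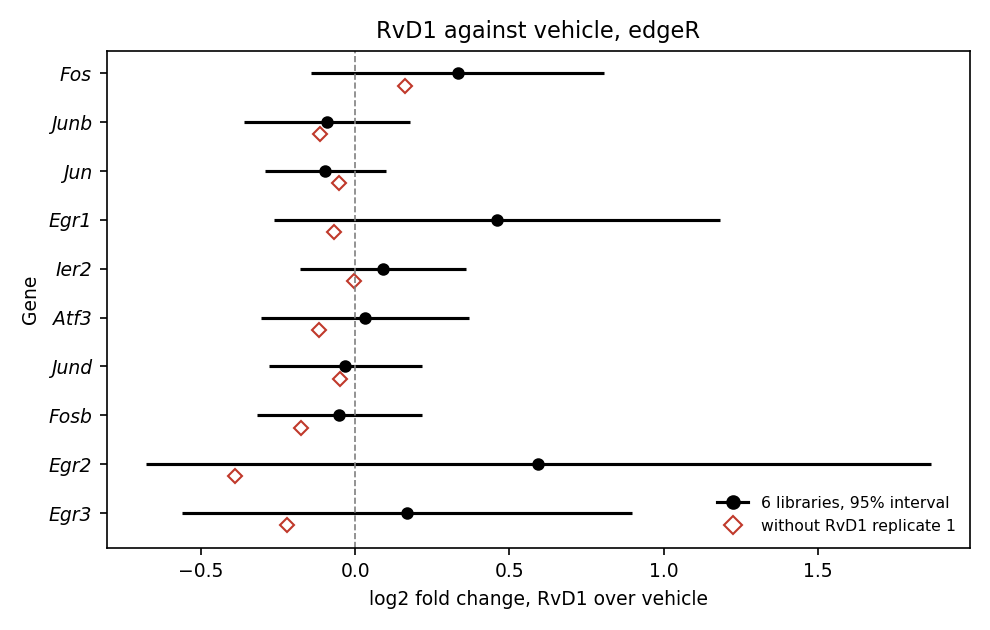
log2 fold change of RvD1 over vehicle from edgeR for each gene (circle) with its 95% interval (line), and the value without RvD1 replicate 1 (open diamond). All 10 intervals cross 0, and the values of Egr1, Egr2, Egr3, Ier2 and Atf3 move from above to below 0 without that library.

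Fos encodes the AP-1 subunit that gave the family its name and lies on chromosome 12 (GRCm38, 85473890 to 85477273, plus strand). It was at 549, 272 and 501 TPM in RvD1 replicates 1, 2 and 3, and at 309.5, 332 and 339.8 TPM in vehicle replicates 1, 2 and 3. Thus 2 RvD1 libraries lay above all vehicle libraries and the third lay below them. The means were 441 ± 148 TPM with RvD1 and 327 ± 15.8 TPM with vehicle (SD, n = 3 each). Fos varied 2.02-fold between the highest and lowest RvD1 library and 1.10-fold between the vehicle libraries. The log2 fold change in the edgeR fit was 0.33 (SE 0.21, 95% interval −0.14 to 0.81, unadjusted p = 0.148, adjusted p = 0.971). Without RvD1 replicate 2 it was 0.57, with an unadjusted p of 7.13e-04 and an adjusted p of 0.725 in edgeR's quasi-likelihood test, and without RvD1 replicate 1 it was 0.16.

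Fosb, a paralog of Fos on chromosome 7 (19302696 to 19310051, minus strand), was far less abundant than Fos. It was at 46.0, 35.5 and 40.9 TPM with RvD1 and at 45.6, 43.3 and 35.9 TPM with vehicle. The groups spanned nearly the same range, and the fold change was 0.965 (95% interval 0.802 to 1.16). The sum of Fos and Fosb followed Fos, at 595, 307 and 542 TPM with RvD1 and 355, 376 and 376 TPM with vehicle.

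Jun was the steadiest gene of the set. It lies on chromosome 4 (95049034 to 95052222, minus strand, 1 exon) and encodes the AP-1 subunit whose activity is raised by the kinase JNK. Jun was at 234, 239 and 257 TPM with RvD1 and at 243, 255 and 239 TPM with vehicle, a span of 1.10-fold over all 6 libraries. Its spread within groups, an SD of 0.076 on the scale of log2 CPM (library-scaled counts, normalized by TMM), was among the smaller ones. Of all genes tested 7.27% had one as small, and of those with a mean log2 CPM of 5 or more 14.7% did. The fold change was 0.935 (95% interval 0.816 to 1.07, unadjusted p = 0.292, adjusted p = 0.971 in edgeR's quasi-likelihood test), so that changes of Jun beyond 0.816-fold and 1.07-fold lay outside the interval.

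Junb, which can restrain the activity of Jun, lies on chromosome 8 (84974484 to 84978718, minus strand). It was at 385, 345 and 363 TPM with RvD1 and at 417, 388 and 296 TPM with vehicle. Vehicle replicates 1 and 2 held the highest values and vehicle replicate 3 the lowest, so that the RvD1 libraries lay inside the range of the vehicle libraries. Jund, also on chromosome 8 (70698949 to 70700616, plus strand), is the Jun gene with the most constant expression in resting cells. It was at 65.7, 62.4 and 59.7 TPM with RvD1 and at 67.1, 62.3 and 52.1 TPM with vehicle, with the same pattern as Junb of a low vehicle replicate 3. The fold changes were 0.939 (95% interval 0.779 to 1.13) for Junb and 0.978 (95% interval 0.824 to 1.16) for Jund. The 2 genes had the closest profiles of any pair among the 10, with a root mean square difference of 0.065 in log2 CPM centered on each gene's mean. The sign of the Jund value turned when library size alone was used for scaling (log2 fold change 0.0028, against −0.032), and those of Jund and Junb with log2(TPM + 1) (0.054 and 0.0036).

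Reads from overlapping genes bear on the Jun values. Jun overlaps the antisense gene Junos, and Jund the antisense gene Gm11175. The summed counts of each pair were whole numbers in 6 of 6 libraries, within 0.005, although the separate values were not always whole, which shows that reads were divided between the 2 partners. Junos took between 0.235% and 0.454% of the sum with Jun. Gm11175 took between 0% and 9.10% of the sum with Jund, the highest share in RvD1 replicate 3, where 103 of 1128 counts were assigned to it. Adding these counts back, which was tried only after the data had been seen, gave Jund a log2 fold change of 0.0031, not called. Junb overlaps Prdx2 on the opposite strand. The kit does not mark strand, so reads of overlapping genes on opposite strands cannot be told apart with certainty.

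The ratio of Fos to Jun in TPM was 2.35, 1.14 and 1.95 with RvD1 and 1.27, 1.30 and 1.42 with vehicle. It was highest in RvD1 replicates 1 and 3 and lowest in RvD1 replicate 2, so the groups overlapped. The sum of the 3 Jun genes was 671 ± 21.0 TPM with RvD1 and 673 ± 75.4 TPM with vehicle (SD, n = 3 each).

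The Egr genes were the most variable. Egr1, on chromosome 18 (34859823 to 34864984, plus strand), encodes a factor that responds to growth factors and mechanical load. It was at 464, 170.5 and 215 TPM with RvD1 and at 238, 189.9 and 153 TPM with vehicle. RvD1 replicate 1 was the highest library, whereas the other RvD1 libraries lay within the range of the vehicle libraries. The means were 283 ± 158 TPM and 194 ± 42.5 TPM (SD, n = 3 each), and the log2 fold change was 0.46 (SE 0.32, 95% interval −0.26 to 1.18, unadjusted p = 0.182, adjusted p = 0.971 in edgeR's quasi-likelihood test). Without RvD1 replicate 1 it was −0.068.

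Egr2, known for its role in the myelination of peripheral nerves, lies on chromosome 10 (67535475 to 67542188, plus strand). It was at 96.5, 24.6 and 22.8 TPM with RvD1 and at 47.3, 26.6 and 15.4 TPM with vehicle. The highest library was 6.27 times the lowest, and in both groups the library numbered 1 held the highest value. Its SD within groups was 0.98 on the log2 CPM scale, above that of 97.9% of all genes tested and of 99.9% of those with a mean log2 CPM of 5 or more. The log2 fold change was 0.59 (SE 0.56, 95% interval −0.68 to 1.86, adjusted p = 0.971 in edgeR's quasi-likelihood test), and it was −0.39 without RvD1 replicate 1.

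Egr3, a paralog required for the development of muscle spindles, lies on chromosome 14 (70077203 to 70082614, plus strand) and was the least abundant of the 10 genes. It was at 5.49, 3.23 and 2.17 TPM with RvD1 and at 3.90, 2.72 and 2.64 TPM with vehicle, from a mean of 160 counts per library. The RvD1 libraries held both the highest and the lowest value. The log2 fold change was 0.17 (SE 0.32), and −0.22 without RvD1 replicate 1. Summed over the 3 Egr genes, the level was 566, 198 and 240.4 TPM with RvD1 and 289, 219 and 171 TPM with vehicle, with RvD1 replicate 1 above every other library.

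Ier2, on chromosome 8 (84661331 to 84662852, minus strand), was at 156, 121 and 129.7 TPM with RvD1 and at 141, 112 and 109 TPM with vehicle. The order of the libraries within each group followed that of Egr1, with replicate 1 highest in both groups. The fold change was 1.06 (95% interval 0.883 to 1.28), and the log2 value moved from 0.089 to −0.0023 without RvD1 replicate 1. Atf3, on chromosome 1 (191170296 to 191218039, minus strand), was at 80.1, 53.9 and 62.8 TPM with RvD1 and at 54.3, 59.1 and 68.0 TPM with vehicle. Its vehicle libraries ran in the opposite order to those of Egr1, with vehicle replicate 3 the highest of them. The fold change of Atf3 was 1.02 (95% interval 0.809 to 1.29), and the log2 value moved from 0.032 to −0.12 without RvD1 replicate 1.

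RvD1 replicate 1 held the highest TMM-scaled CPM for 7 of the 10 genes, namely Fos, Fosb, Egr1, Egr2, Egr3, Ier2 and Atf3. Over all genes tested, this library was the highest for 30.6%. It was the lowest library for Jun. The mean of the 10 genes, as log2 CPM centered on each gene's mean over the 6 libraries, was 0.43 in RvD1 replicate 1 and −0.16 and −0.12 in RvD1 replicates 2 and 3, and it was 0.094, −0.031 and −0.21 in the vehicle libraries. The 2 other RvD1 libraries thus lay within the range of the vehicle libraries. Vehicle replicate 3 was the lowest library for 5 of the 10 genes and for 2777 of the 14494 genes tested. The gene with the largest departure was Egr2, at 1.52 in RvD1 replicate 1 and −0.97 in vehicle replicate 3.

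**Figure D3:**
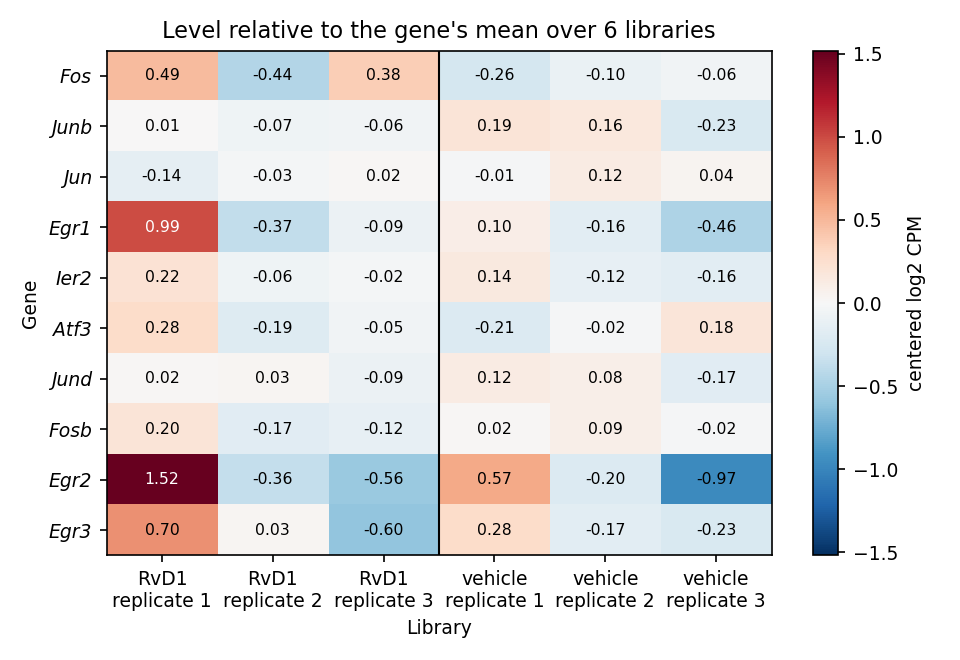
log2 CPM of the 10 genes in the 6 libraries, centered on each gene's mean, with red above and blue below the mean. RvD1 replicate 1 reaches 1.52 for Egr2 and 0.99 for Egr1, whereas Fosb, Ier2 and the 3 Jun genes stay within 0.23 of their means in every library.

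The labelled cell type was set beside its markers. All 12 markers of the myogenic lineage had a mean of at least 1 TPM, as did all 7 markers of fibroadipogenic cells, 6 of 8 of myofibers and 9 of 15 of leukocytes. The sum of the myogenic markers ranged from 4222 to 5086 TPM with RvD1 and from 3969 to 4317 TPM with vehicle. Pax7, the defining factor of MuSCs, was at 4.58 to 8.50 TPM with RvD1 and 4.03 to 6.63 TPM with vehicle, and Myod1, which marks activated MuSCs, at 239 to 470.0 TPM and 325 to 376 TPM. The largest log2 fold changes of myogenic markers were those of Myog (0.20, SE 0.16), Pax7 (0.19, SE 0.28) and Sdc4 (0.17, SE 0.17). The summed level of fibroadipogenic markers was highest in the library that was highest for most immediate early genes. Their sum was 1374 TPM in RvD1 replicate 1, compared with 646 and 887 TPM in the other RvD1 libraries and with 731 to 811 TPM in the vehicle libraries. Col3a1, a collagen gene, alone had a mean of 530 TPM over the 6 libraries, so the sum says little about the less abundant markers. RvD1 replicate 1 was the highest library for 5 of these 7 markers and for 30.6% of all genes tested. Dcn, which encodes the matrix proteoglycan decorin, was at 450.3 TPM in that library and at 182 to 284 TPM elsewhere. By log2 fold change, Dpt (0.73, SE 0.53), Ly6a (−0.62, SE 0.20) and Dcn (0.46, SE 0.26) differed most among these markers. Ly6a, which encodes Sca-1, had an unadjusted p of 0.0141 and an adjusted p of 0.971 in edgeR's quasi-likelihood test. For Ly6a every RvD1 library, replicate 1 included, lay below every vehicle library in TMM-scaled CPM. Groups did not overlap for 9.62% of all genes tested. The log2 fold change was above 0 for 6 of the 7 markers, where 53.5% of all genes tested lay above 0. The part of these markers in the levels of the immediate early genes was not tested, and in such bulk libraries fewer cells of a type and less RNA per cell cannot be told apart.

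The summed level of 15 leukocyte markers ranged from 44.6 to 63.8 TPM with RvD1 and from 55.3 to 96.2 TPM with vehicle. The log2 fold change was below 0 for 11 of the 12 leukocyte markers tested, whereas 53.5% of all genes tested lay above 0. Lyz2 (−1.06, SE 0.32), Tyrobp (−1.04, SE 0.38) and Itgb2 (−1.13, SE 0.47) had an unadjusted p under 0.05, which 3.47% of all genes tested had. Each of the 3 had an adjusted p of 0.971 in edgeR's quasi-likelihood test, and Adgre1 was at −1.27 (SE 0.65). The defining markers Ptprc and Itgam were near 0, at no more than 1.13 and 0.80 TPM in any library. Lyz2 was the highest of the 15 leukocyte markers, at a mean of 34.6 TPM, and the only 1 with a mean of at least 10 TPM. The sum of 8 endothelial markers ranged from 9.76 to 16.5 TPM with RvD1 and from 7.02 to 21.5 TPM with vehicle, with the lowest and the highest sum both in vehicle libraries. Kdr (−1.74, SE 0.83), Pecam1 (−1.42, SE 0.82) and Tie1 (−1.20, SE 1.14) had the largest log2 fold changes. Vehicle replicate 3 was the highest library for 6 of the 8 endothelial markers and for 17.9% of all genes tested. Of these 8 markers, 0 had a mean of at least 10 TPM. The sum of 8 myofiber markers ranged from 1004 to 1803 TPM with RvD1 and from 1104 to 1467 TPM with vehicle, highest in RvD1 replicate 3, and the largest log2 fold changes were those of Myh4 (1.21, SE 0.65), Ckm (0.23, SE 0.38) and Acta1 (0.22, SE 0.23).

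Other immediate early genes were followed in a list of 33. All 33 were tested and 0 passed the adjusted threshold in edgeR, as did 0% of all genes. The log2 fold change was above 0 for 20 and below 0 for 13 of them, against 53.5% above 0 over all genes, and their median was 0.074. The groups did not overlap for 4 of the 33, namely Btg2, Nr4a2, Klf4 and Per1, where 9.62% of all genes tested did not overlap. An unadjusted p under 0.05 was reached by 2 of the 33 genes, where 3.47% of all genes tested reached it. RvD1 replicate 1 was the highest library for 18 of the 33 and for 30.6% of all genes tested. Mean TPM was at least 10 for 30 of the 33 and at least 100 for 10 of them, with a median of 46.8 TPM, compared with 95.5 TPM for the 10 genes, and Cyr61, a secreted matrix protein, was the highest at 538 TPM.

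Btg2, an antiproliferative gene, was at 47.9, 23.2 and 29.3 TPM with RvD1 and at 21.7, 18.2 and 21.7 TPM with vehicle. Every RvD1 library lay above every vehicle library, with RvD1 replicate 1 the highest (log2 fold change 0.61, SE 0.23, unadjusted p = 0.0245, adjusted p = 0.971 in edgeR's quasi-likelihood test). Klf4, a zinc finger factor, was at 26.0, 25.0 and 24.9 TPM with RvD1 and at 29.8, 34.4 and 27.3 TPM with vehicle. Here the RvD1 libraries were within a narrow range below all vehicle libraries (log2 fold change −0.37, SE 0.11, unadjusted p = 0.00903, adjusted p = 0.971 in edgeR's quasi-likelihood test). By size of the log2 fold change, Btg2 was followed by Ctgf, a secreted matrix protein (0.50, SE 0.24), and by Egr4, the Egr paralog of lowest level (0.42, SE 0.46). Egr4 was at 0.28 to 0.61 TPM over the 6 libraries, from 7 to 22 counts each.

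Genes that shut the response down were described in the same way. The 10 feedback genes encode phosphatases of the MAP kinases, mRNA decay factors of the Zfp36 family and the Egr corepressors Nab1 and Nab2. Of these, 7 had a log2 fold change above 0, where 53.5% of all genes tested did. An unadjusted p under 0.05 in edgeR was reached by 0 of the 10, where 3.47% of all genes tested reached it. The largest changes among the feedback genes were those of Zfp36 (0.30, SE 0.19), Dusp6 (0.29, SE 0.26) and Dusp1 (0.26, SE 0.19). Dusp1, the phosphatase that inactivates JNK and p38, was at 236, 127 and 176 TPM with RvD1 and at 124, 133 and 158 TPM with vehicle, again with RvD1 replicate 1 the highest library. This library was the highest for 8 of the 10 feedback genes and for 30.6% of all genes tested.

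Of 23 kinases and transcription factors that act upstream of the immediate early genes, 18 had a log2 fold change above 0, where 53.5% of all genes tested did. Their median was 0.043, against 0.014 over all genes tested. An unadjusted p under 0.05 in edgeR was reached by 0 of the 23, where 3.47% of all genes tested reached it. The 3 largest log2 fold changes in this list were those of Mkl2, a coactivator of SRF (0.32, SE 0.17), Srf itself (−0.24, SE 0.12) and Crem, a CREB family member (0.22, SE 0.26). Srf was at 43.9, 55.5 and 55.3 TPM with RvD1 and at 68.8, 64.5 and 59.6 TPM with vehicle. These TPM values of Srf did not overlap between the groups, although the TMM-scaled CPM values did. Among bZIP factors that can pair with the AP-1 proteins, 11 of the 14 listed were tested, and Batf, Batf2 and Batf3 were too low. Atf5, a stress response factor, had a log2 fold change of −0.42 (SE 0.35) and Cebpb, a factor of the C/EBP family, one of 0.37 (SE 0.32), each smaller in size than 2 SE. The groups did not overlap for 1 of the 11 genes, Atf4, against 9.62% of all genes tested.

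Heat shock genes, which also respond to the handling of tissue, had a high sum in all libraries. The sum of 12 heat shock genes ranged from 9316 to 10085 TPM with RvD1 and from 9469 to 9932 TPM with vehicle. Hspa8 alone had a mean of 3476 TPM, so the sum says little about the less abundant genes. Hspa1a and Hspa1b each had an SD within groups of 0.64 on the log2 CPM scale, above that of 91.6% of all genes tested. The log2 fold change was below 0 for 7 of the 12, with a median of −0.074, whereas 53.5% of all genes tested lay above 0. An unadjusted p under 0.05 in edgeR was reached by 0 of the 12, where 3.47% of all genes tested reached it. The largest changes were those of Hsp90aa1 (−0.25, SE 0.12), Hspe1 (−0.16, SE 0.13) and Hspd1 (−0.14, SE 0.16), which encode chaperones of the cytosol and the mitochondria.

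**Figure D4:**
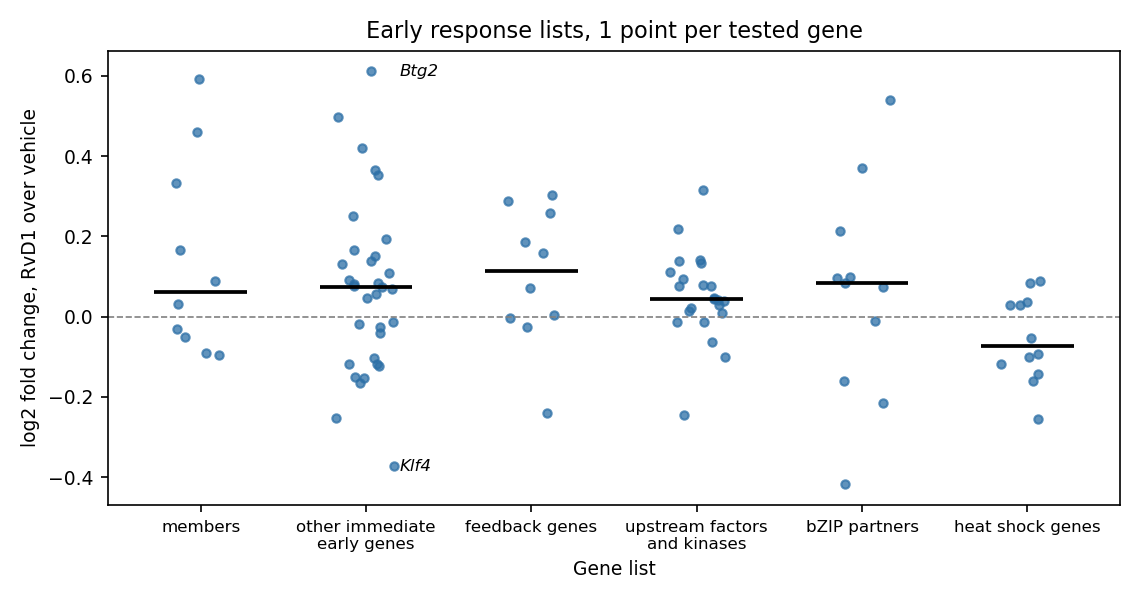
log2 fold change of RvD1 over vehicle from edgeR for each tested gene of the 6 lists, with 1 point per gene and a line at the median of each list. The medians lie between −0.074 and 0.11, and Btg2 and Klf4 are the genes with an unadjusted p under 0.05.

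The mean profile of the 10 genes over the 6 libraries was compared with that of every other gene tested. The 10 genes did not share this profile. In RvD1 replicate 1, Egr2 was at 1.52 and Jun at −0.14 in centered log2 CPM. Root mean square differences between pairs of the 10 ran from 0.065 (Junb and Jund) to 0.88 (Jun and Egr2). The 5 genes with the smallest root mean square difference from the mean profile were Mtch1 (0.018), Slc43a3 (0.030), Dpp8 (0.031), Slc44a1 (0.033) and Phyh (0.038). Mtch1, a protein of the outer mitochondrial membrane, was at 226, 155 and 155 TMM-scaled CPM with RvD1 and at 184.5, 167 and 145 with vehicle, with the libraries in the order of the mean profile. None of the 5 belongs to the early response lists, and none had an adjusted p under 0.05 in edgeR's quasi-likelihood test.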

How the data were processed

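RNA-Seq was analyzed in 6 libraries (3 RvD1, 3 vehicle) grouped by their titles. Per the submitters' processing notes, the authors used STAR 2.5.0a on mm10 and RSEM. The deposited expected counts are RSEM's estimates per gene, unscaled, and were rounded here. The authors also deposited TPM and FPKM values, which RSEM scales by transcript length and by library. The annotation release was not given in the sources used here. The labels and the study's methods differ in RNA input, integrity and the use of CD31 in the sort. Expected counts totaled 17962025 to 28149176 with RvD1 and 16148026 to 18755643 with vehicle, and 3 counts correspond to 0.107 to 0.186 CPM, a floor for counting error only. Egr3, the shallowest of the 10 genes, had a mean of 160 counts.

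edgeR 4.0.16 in R 4.3.3 was used with TMM factors, filterByExpr, the quasi-likelihood test and Benjamini-Hochberg adjustment over all genes tested (threshold 0.05), and each SE was the log2 fold change divided by the square root of F. Log2 CPM used a prior count of 2. Alternatives were DESeq2 1.42.0, limma-voom (limma 3.58.1) with and without surrogate variables (sva 3.50.0), which the study's methods use, other scaling and filters, robust estimation, log2 TPM or FPKM with a pseudocount of 1 and TPM with 0.1, a replicate block, and leaving out each library. Fits were tested on simulated data. Gene positions are from GENCODE M21.

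The genes and lists were chosen with earlier results of these data known. Text names all 10 genes, per list the 3 with the largest absolute log2 fold change and those with an unadjusted p under 0.05, and the 5 most similar profiles, except 1 gene of the bZIP list that is not reported here. Nr4a2, Per1, Atf4, Cyr61, Myod1, Ptprc, Itgam, Col3a1, Hspa8, Hspa1a and Hspa1b were named after their values were seen. P values set the difference between the groups against the spread between libraries, each of which came from 1 mouse. Sequences before the start of Egr1 were not searched.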

Additional observations from a re-analysis of the deposited data

How the results depend on the processing

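The count of immediate early genes called was 0 under all 20 alternatives, as was that of the 33 other immediate early genes. The smallest adjusted p of any of the 10 genes was 0.270, for Egr1 with limma-voom after removal of 1 surrogate variable (log2 fold change 0.19, unadjusted p = 0.00541). The variable was subtracted before the fit, which did not count it as estimated, so p values of this fit can be too small. Without surrogate variables, limma-voom gave Egr1 a log2 fold change of 0.35 (unadjusted p = 0.295). Over all alternatives the median log2 fold change of the 10 genes was lowest when RvD1 replicate 1 was left out (−0.090) and highest when RvD1 replicate 2 was (0.14). Fos and Jun kept their direction throughout. Reversals of sign were as follows, and apart from the antisense counts, whose addition itself raises the RvD1 value, the cause was not tested. Jund moved from −0.032 to 0.0028 with library size alone, 0.054 with log2(TPM + 1), 0.054 with log2(TPM + 0.1), 0.0063 with log2(FPKM + 1) and 0.0031 with the antisense counts added, which was chosen after seeing the data. Junb moved from −0.091 to 0.0036 with log2(TPM + 1) and 0.0036 with log2(TPM + 0.1). The median of all genes also moved, from 0.014 to 0.050 with library size alone and 0.077 with log2(TPM + 1). With 1 library left out, log2 fold changes ranged from −0.068 to 0.71 for Egr1, −0.39 to 1.07 for Egr2, −0.22 to 0.43 for Egr3, −0.0023 to 0.19 for Ier2, −0.12 to 0.14 for Atf3, −0.18 to 0.018 for Fosb and −0.12 to 0.023 for Jund. The lowest values of Egr1, Egr2, Egr3, Ier2 and Atf3 were those without RvD1 replicate 1.

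The same replicate numbers were used in RvD1 and vehicle mice, which are different animals. The correlations of deviations from the group means between same-numbered libraries were 0.31, −7e-04 and 0.13. The first was the highest between any RvD1 and vehicle library, and RvD1 replicate 3 also correlated best with vehicle replicate 3. RvD1 replicate 2, however, correlated best with vehicle replicate 3 (0.17), so the numbers were not taken to pair the mice. Whether same-numbered libraries were handled together was not tested. With a replicate block in edgeR, 0 of the 10 genes were called, their median log2 fold change was 0.058, and an unadjusted p under 0.05 was reached by 896 genes, against 503 without the replicate block. Among the 10 genes, Egr2 had a log2 fold change of 0.41 (unadjusted p = 0.0490) with the replicate block and Egr1 one of 0.35 (unadjusted p = 0.0681). Their SE was 0.18 and 0.17 with the replicate block, against 0.56 and 0.32 without it.

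Without a filter on low counts, 12 genes of the whole table were called, and 1 without RvD1 replicate 3, none of them among the 10. In edgeR's quasi-likelihood test, an unadjusted p under 0.05 was reached by Fos, Egr1 and Egr2 without that filter (adjusted p of 0.885 each). It was reached by Fos and Egr1 without RvD1 replicate 2 (adjusted p of 0.725 and 0.727). The share of all genes that reached it in these fits is not given here, so these genes are not set apart from the rest. The limits are those of 3 mice per group, with intervals that for Egr2 reach from 0.625-fold to 3.64-fold. Egr3 rests on the fewest reads, a mean of 160 counts.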
